A study of Mus musculus with 24 samples.

Results

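The miR-130 and miR-301 family was followed through every deposited column of a mouse study of acetaminophen liver injury. The members were taken by name: the mature miRNAs mmu-miR-130a-3p, mmu-miR-130b-3p, mmu-miR-130c and mmu-miR-301a-3p, which are 4 of 1915 mature entries, and every hairpin whose name starts with mmu-mir-130 or mmu-mir-301, which are 5 of 1186 hairpin entries (mmu-mir-130a, mmu-mir-130b, mmu-mir-130c, mmu-mir-301a and mmu-mir-301b). The family was singled out with counts of these same columns known, so its values are given as a description and carry no p-value.

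Small RNA was sequenced from 24 samples in 4 materials: liver, cultured primary hepatocytes, exosomes from the medium of those cultures, and exosomes from serum. Exosomes are small membrane vesicles that cells release with RNA inside. Mice (liver and serum) received 500 mg/kg acetaminophen plus 100 µg/kg granulocyte colony-stimulating factor (G-CSF), 500 mg/kg acetaminophen alone, or nothing. Cultures (hepatocytes and their exosomes) received 20 mM acetaminophen plus 1 µg/ml G-CSF, 20 mM acetaminophen alone, or nothing. Acetaminophen is a painkiller that hepatocytes turn into a toxic metabolite at high dose, and G-CSF is a growth factor for neutrophils and their precursors. The labels give no strain, age, sex or genotype, no time after dosing, and not how many animals or cultures a sample came from.

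MicroRNAs are cut from a hairpin precursor to a short mature strand, and bases 2 to 8 of that strand, the seed, pair with target mRNAs. MiRNAs with the same seed can repress overlapping sets of mRNAs, and the miR-130 and miR-301 family is grouped by such a shared seed. A well described target is the mRNA of the nuclear receptor PPARγ, and miR-130a is known from endothelial cells, where it represses antiangiogenic homeobox genes. MiR-301a is known in human cancer cells for repressing an inhibitor of NF-κB.

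The mature sequences are shown because the 4 members can be told apart only beyond the seed. They were read from RefSeq (GRCm38.p6), where all 4 mature members and all 5 hairpins were matched. Capitals mark the seed.
mmu-miR-130a-3p: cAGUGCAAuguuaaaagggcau
mmu-miR-130b-3p: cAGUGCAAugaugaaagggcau
mmu-miR-130c: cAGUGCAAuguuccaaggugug
mmu-miR-301a-3p: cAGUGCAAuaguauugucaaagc
mmu-miR-6341: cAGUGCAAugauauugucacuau
mmu-miR-6389: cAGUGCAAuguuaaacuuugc
mmu-miR-721: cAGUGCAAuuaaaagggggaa

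The last 3 are not family members by name but have the same seed. In all, 7 of 1626 uniquely named mature miRNAs in RefSeq held AGUGCAA at bases 2 to 8, and all 7 were entries of the deposited mature table. MiR-301b-3p, another deposited entry, had no mature sequence in the reference used and is not among the 7, though its hairpin below holds AGUGCAA. From its first base, miR-130a-3p matched miR-6389 over 15 bases, miR-130c over 12, miR-130b-3p over 10 and miR-301a-3p over 9. Position by position, miR-130b-3p carried the same base as miR-130a-3p at 20 of 22 positions and miR-130c at 16.

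In GRCm38.p6 the mature miR-130a-3p lies at chr2:84741116-84741137 on the minus strand, outside annotated genes. MiR-130b-3p lies at chr16:17124071-17124092 on the minus strand, in an intron of 2610318N02Rik. The Mir301b hairpin stands on the same strand in the same gene, with hairpin starts 354 bases apart, so both belong to 1 cluster. MiR-301a-3p lies at chr11:87113054-87113076 on the plus strand, in an intron of Ska2, which encodes a kinetochore protein. MiR-130c lies at chr9:53400808-53400829 on the minus strand, opposite an exon of the plus-strand gene Kdelc2.

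The hairpins of miR-301a and miR-301b are shown because their counts ran nearly together. The mir-6341 hairpin ran about as closely with mir-301a, at 42.53 against 42.37 counts in control liver and 45 against 49 in control hepatocytes. Its longest run shared with Mir301 is 9 bases. In the mature sequences above, miR-6341 and miR-301a-3p match again beyond the bases that break this run, so an exact run understates their likeness. Whether shared runs bear on these counts was not tested. Capitals mark the longest run of bases that both hold, 16 bases that reach past the 3′ end of mature miR-301a-3p.
Mir301: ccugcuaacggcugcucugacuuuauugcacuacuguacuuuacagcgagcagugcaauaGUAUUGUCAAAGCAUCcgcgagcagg
Mir301b: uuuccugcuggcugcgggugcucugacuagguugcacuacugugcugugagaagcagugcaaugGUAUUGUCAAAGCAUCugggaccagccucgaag

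Each table holds 1 column per condition, in which the Ion Torrent PGM and Proton libraries of that condition had been combined, so there are no replicates and no test between conditions. A comparison of 2 columns compares those columns. Intervals are 95% intervals for counting error only: Wilson for shares, exact conditional (Clopper-Pearson) for ratios. A difference was called when at least 10 counts stood in 1 of the columns, the scaled ratio was at least 2-fold and its interval excluded equality. Mature totals ran from 4450 to 49330 counts in hepatocytes and liver, with 6515 in untreated serum exosomes, and from 47 to 692 in the other 5 exosome columns. For both treated serum columns the sample titles and the treatment characteristic assign G-CSF in opposite ways. The characteristic is followed here. In the acetaminophen liver column, all hairpins together had 5.65 times the mature count, against 25.1 to 33.7 times in the other hepatocyte and liver columns. Whether hairpin counts include reads of the mature strand is not stated. Hairpin and mature values are thus not taken as separate evidence, and their ratio is not read as precursor over mature RNA.

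MiR-130a-3p and miR-130c carried almost all of the family's mature counts. MiR-130a-3p had 66 counts in hepatocytes given acetaminophen plus G-CSF, 104 in hepatocytes given acetaminophen and 85 in control hepatocytes. In liver it had 196.5 counts with acetaminophen plus G-CSF, 51 with acetaminophen and 395 in control. The mature control column of hepatocytes was 5.02 times as deep as the acetaminophen column, so the order shows in the shares of the column total and not in the counts.

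As a share of mature counts, miR-130a-3p stood at 1.48% (1.17 to 1.88) in hepatocytes with acetaminophen plus G-CSF, 1.95% (1.61 to 2.36) with acetaminophen and 0.318% (0.257 to 0.393) in control. In liver the shares were 0.450% (0.392 to 0.518) with acetaminophen plus G-CSF, 0.259% (0.197 to 0.340) with acetaminophen and 0.801% (0.726 to 0.883) in control. Both drug-treated hepatocyte columns were thus above their control and both drug-treated livers below theirs, and no treated interval overlapped that of its control. By abundance it ranked 12 of 177 detected mature entries in acetaminophen hepatocytes and 40 of 284 in control hepatocytes, and 56 of 326 in acetaminophen liver and 35 of 452 in control liver.

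**Figure D1:**
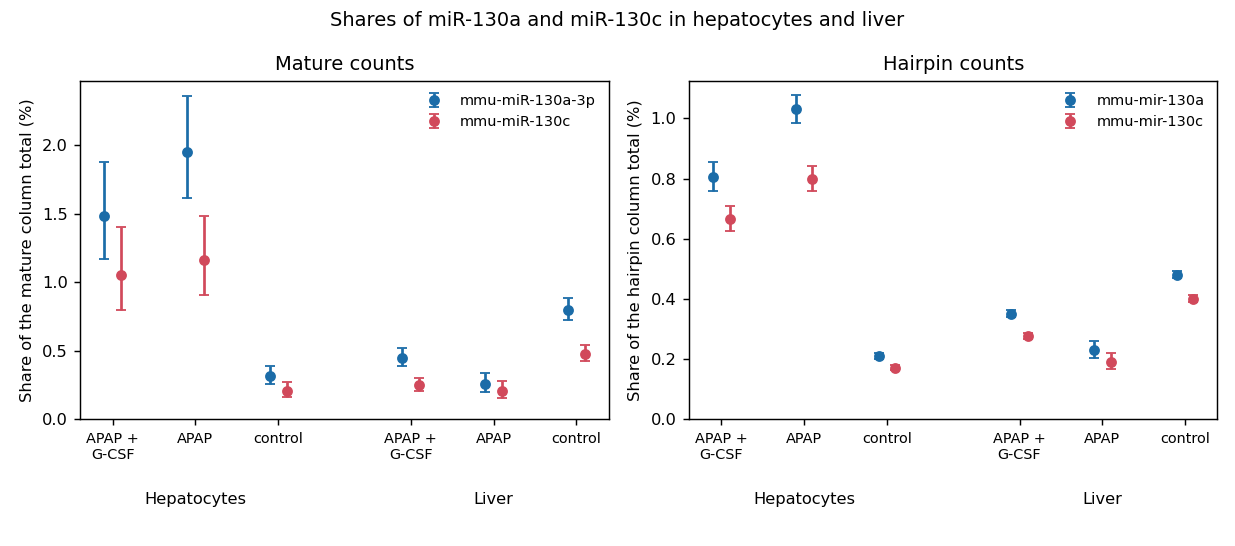
Share of the column total (%, linear axis from 0) of miR-130a and miR-130c in the mature table (left) and of their hairpins (right), 1 point per column with its 95% Wilson interval, for hepatocytes and liver by treatment (APAP, acetaminophen). Mature miR-130a-3p stood at 1.95% in acetaminophen hepatocytes and 0.318% in control hepatocytes, and at 0.259% in acetaminophen liver and 0.801% in control liver.

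As a share of the column total, miR-130c followed the same order at a lower level. It had 47, 62 and 56 counts in hepatocytes with acetaminophen plus G-CSF, acetaminophen and no drug, which are 1.06%, 1.16% and 0.209% of the column. In liver it had 109.5, 41 and 237 counts in the same order of treatments, or 0.251%, 0.208% and 0.480%. Its intervals in the 2 treated livers overlapped, while both lay below control. After the TMM scaling used below, the 2 treated livers stood in the other order.

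The ratio of miR-130c to miR-130a-3p varied little over the columns with counts. It was 0.557 to 0.804 in the mature table over the 7 columns concerned and 0.775 to 0.835 in the hairpin table. The hairpins of the pair share no run longer than 12 bases in RefSeq, and the labels and headers do not state how a read that matches several entries was counted. Many counts are fractions (196.5 and 109.5 above), so counts of related entries may not be independent, and miR-130c is reported as uncertain for that reason. The same holds for mmu-mir-6389, whose hairpin shares a 17-base run with Mir130a and whose count was 0.00956 to 0.0121 of the mir-130a count in all 7 columns.

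MiR-130b-3p, the member most like miR-130a-3p in sequence, was close to absent in cells and tissue. It had 1 count in hepatocytes with acetaminophen plus G-CSF and 0 in the other hepatocyte columns. In liver it had 0 counts with acetaminophen plus G-CSF, 1 with acetaminophen and 4 in control, and untreated serum exosomes held 4 counts in a column far shallower than control liver. MiR-301a-3p had 1.667 counts in control hepatocytes, 1 each in acetaminophen and control liver, 1 in untreated serum exosomes and 1 in acetaminophen hepatocyte exosomes, and 0 in the other columns. The entries miR-301b-3p and miR-6341 were identical to miR-301a-3p in 11 of the 12 columns, most of which held 0 for each entry. Above 0 they matched at 1.667 in control hepatocytes and at 1 in acetaminophen liver, control liver and untreated serum exosomes. In acetaminophen hepatocyte exosomes they had 0 against 1. The few reads that match may therefore not belong to 1 of the entries. Neither miR-130b-3p nor miR-301a-3p reached 10 counts in any column, and no fold is given for them.

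Summed over the 4 members, the mature family made up 2.56% (2.14 to 3.07) of counts in hepatocytes with acetaminophen plus G-CSF, 3.11% (2.68 to 3.62) with acetaminophen and 0.534% (0.454 to 0.630) in control. In liver it made up 0.700% (0.626 to 0.783), 0.477% (0.390 to 0.584) and 1.29% (1.20 to 1.40) in the same order of treatments. Untreated serum exosomes stood at 0.568% (0.412 to 0.782). From high to low, the order was acetaminophen hepatocytes, acetaminophen plus G-CSF hepatocytes, control liver, acetaminophen plus G-CSF liver, untreated serum exosomes, control hepatocytes and acetaminophen liver. The first pair overlapped in their intervals, and so did each neighbouring pair among the last 4. The place of untreated serum exosomes depends on what fills that column. With miR-30c-5p and miR-122-5p left out, its median log2 fold over all mature entries rose by 0.78 against control liver. Against control hepatocytes it rose by 0.97.

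In cultured hepatocytes, acetaminophen was compared with no drug after scaling by trimmed mean of M values (TMM). MiR-130a-3p was 6.44-fold higher (4.79 to 8.68) with acetaminophen and miR-130c 5.83-fold higher (3.99 to 8.52). Both mature members that could be measured were called higher, where 26% of the 100 mature entries compared were called higher and 27% lower. The median log2 fold of those 100 entries was -0.60, against 2.69 and 2.54 for miR-130a-3p and miR-130c, which ranked 9 and 12 from the top. The split of calls depends on scaling: 26 higher and 27 lower became 30 and 20 with DESeq2 size factors, and 17 and 46 with no low-count filter before TMM.

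The hairpins in hepatocytes separated the family in opposite directions. Mir-130a had 1851.6 counts with acetaminophen and 1766.2 in control from a column 4.67 times as deep, and was 3.74-fold higher (3.50 to 3.99). Mir-130c was 3.56-fold higher (3.30 to 3.83). Mir-130b had 15 counts with acetaminophen and 12 in control and was 4.45-fold higher, with a wide interval of 1.95 to 10.4.

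Mir-301a had 3.5 counts with acetaminophen against 49 in control, and was 3.93-fold lower (1.26 to 13.1). Mir-301b had 3.5 counts against 48 and was 3.85-fold lower (1.23 to 12.9). These 2 entries are near duplicates in counts and are not 2 separate observations. The mir-6341 hairpin, not a member by name, had 3 counts against 45, so the reads may not belong to the miR-301 hairpins alone. With column totals in place of TMM both miR-301 hairpins kept their direction but were no longer called (log2 -1.59 for mir-301a and -1.56 for mir-301b). So 3 hairpins were called higher and 2 lower, where 29.8% of 302 hairpins were called higher and 33.8% lower. Counts of mir-130a and mir-130c may not be independent either. Column totals gave 100 hairpins higher and 75 lower, against 90 and 102 with TMM, while TMM without the filter made 35.5% of the calls higher, against 46.9%.

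**Figure D2:**
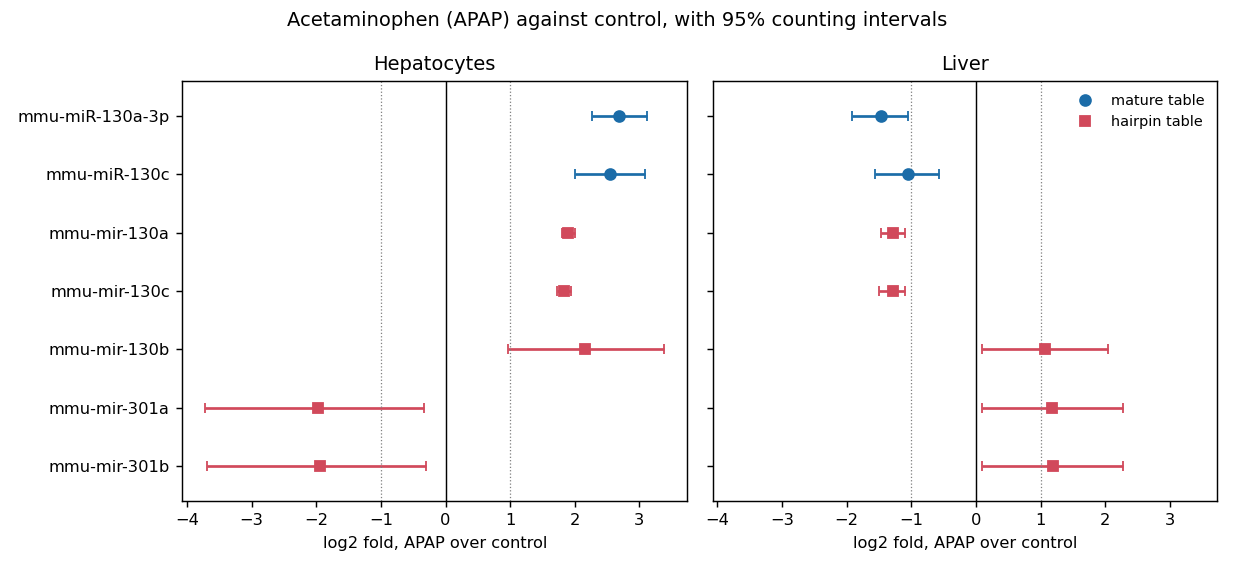
Log2 fold of acetaminophen (APAP) over control with its exact 95% counting interval for each family entry with at least 10 counts in 1 of the columns, in hepatocytes (left) and liver (right); dotted lines mark 2-fold, circles the mature table, squares the hairpin table. MiR-130a-3p stood at 2.69 in hepatocytes and -1.47 in liver, and mir-301a at -1.97 in hepatocytes and 1.18 in liver.

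G-CSF added to acetaminophen in culture left the major members uncalled. MiR-130a-3p in the acetaminophen plus G-CSF column was 0.811 (0.587 to 1.12) of its level with acetaminophen alone, and miR-130c 0.969 (0.649 to 1.44), on the other side of equality with DESeq2 size factors (log2 0.11). The intervals allow a moderate difference either way for miR-130c and do not show equal levels. Of 47 mature entries, 27.7% were called in either direction in this comparison. Mir-130b had 2 counts with acetaminophen plus G-CSF and 15 with acetaminophen alone and was called 5.31-fold lower (1.24 to 47.9), where 14.3% of 230 hairpins were called lower, and with 2 counts its size is poorly known. DESeq2 size factors gave 28 hairpins higher and 32 lower in this comparison, against 18 and 33 with TMM.

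Against control hepatocytes, the acetaminophen plus G-CSF column held miR-130a-3p 5.22-fold higher (3.73 to 7.29) and miR-130c 5.65-fold higher (3.75 to 8.47), where 23% of 100 mature entries were called higher. Mir-130a was 3.19-fold higher (2.96 to 3.45) and mir-130c 3.24-fold higher (2.98 to 3.53). Mir-301a had 1.667 counts against 49 and was 5.85-fold lower (1.28 to 41.4), where 26.6% of 290 hairpins were called higher and 34.5% lower. This comparison uses the same control column as acetaminophen alone, so both carry the error of that column. DESeq2 size factors gave 27 mature entries higher and 18 lower, against 23 and 29 with TMM, and TMM without the filter gave 66 hairpins higher and 132 lower, against 77 and 100.

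Markers of other cells differed between the hepatocyte columns too. The endothelial pair miR-126a-3p and miR-126a-5p were both detected in all 3, and summed to 1.24% with acetaminophen plus G-CSF, 1.76% with acetaminophen and 0.333% in control. The 4 hepatocyte markers (miR-148a-3p, miR-122-5p, miR-194-5p and miR-192-5p) were all detected and summed to 14.0%, 26.9% and 18.5% in that order of treatments. Against that sum, miR-192-5p was above control with acetaminophen plus G-CSF, at 149 counts against 652 in a column 6.01 times as deep. Of the 5 stellate and mesenchymal markers, miR-199a-3p and miR-214-3p were at 0 in each hepatocyte column, and the list summed to 0.0187%, 0.166% and 0.00686%. Of the 4 erythroid and the 4 leukocyte markers no more than 1 of each list was detected in any hepatocyte column, with sums of at most 1 count. The part of these other cells in the family's higher share was not tested. In bulk RNA, fewer cells of a type and less RNA per cell cannot be told apart.

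In liver, acetaminophen went with a lower share of the major members. MiR-130a-3p was 2.77-fold lower (2.07 to 3.79) with acetaminophen than in control, and miR-130c 2.07-fold lower (1.48 to 2.96). Both measured mature members were called lower, where 27.5% of 160 mature entries were called lower and 23.1% higher. As in hepatocytes, the counts of both may not be independent. The call for miR-130c was lost with DESeq2 size factors (log2 -0.87) and when miR-30c-5p and miR-122-5p were left out before scaling (log2 -0.80). Column totals gave 27 mature entries higher and 50 lower, against 37 and 44 with TMM, and TMM without the filter gave 25 and 54.

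Among liver hairpins, mir-130a had 257 counts with acetaminophen against 6284.0 in a control column 11.7 times as deep, and was 2.43-fold lower (2.15 to 2.77). Mir-130c was 2.44-fold lower (2.13 to 2.81), from counts that may not be independent of those of mir-130a. The less abundant hairpins went the other way. Mir-130b had 11.5 counts against 55 and was 2.10-fold higher (1.07 to 4.14), and mir-301a had 9.533 counts against 42.37 and was 2.26-fold higher (1.07 to 4.85).

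So 2 liver hairpins were called lower and 3 higher (mir-301b at 2.28-fold with nearly the same counts as mir-301a), where 19.9% of 432 hairpins were called lower and 16.7% higher. With counts rounded down, mir-130b (log2 1.01), mir-301a (log2 1.11) and mir-301b (log2 1.11) were no longer called. The acetaminophen liver column is also the one with the low ratio of hairpin to mature counts. Mir-130a had 5.04 hairpin counts per mature count there, against 15.9 to 20.8 in the 6 other columns with counts.

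Acetaminophen plus G-CSF left liver between the other columns for miR-130a. MiR-130a-3p was 1.41-fold higher (1.03 to 1.96) with acetaminophen plus G-CSF than with acetaminophen alone, and mir-130a 1.65-fold higher (1.46 to 1.88), neither of which reached the 2-fold limit. MiR-130c stood at 0.976 (0.679 to 1.44) of its acetaminophen level, and above it with column totals (log2 0.27). Mir-301b had 34.13 counts with acetaminophen plus G-CSF against 9.533 with acetaminophen, from a column 9.85 times as deep, and was called 2.53-fold lower (1.17 to 5.51), where 12.9% of 379 hairpins were called lower, while mir-301a with 43.13 against 9.533 counts lay at the 2-fold limit, with an interval of 0.235 to 1.06 of its acetaminophen level that held equality, and of the alternatives run only column totals called it (log2 -1.12). Of 162 mature entries, 30.2% were called: 28 were called higher and 21 lower with TMM, but 24 and 30 with DESeq2 size factors, 44 and 15 with column totals, 43 and 15 without the filter, and 23 and 31 with miR-30c-5p and miR-122-5p left out, so the balance of calls in this comparison rests on the scaling.

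Against control liver, the acetaminophen plus G-CSF column held miR-130c 2.12-fold lower (1.68 to 2.67), where 12.9% of 171 mature entries were called lower. MiR-130a-3p was 1.97-fold lower (1.65 to 2.34), just short of the limit. The call for miR-130c was lost with column totals (log2 -0.94), which gave 29 mature entries higher and 15 lower, against 27 and 22. No family hairpin was called, where 40% of 458 hairpins were: mir-130a stood at 0.679 and mir-130c at 0.645 of control. The control column is the one already used for acetaminophen alone.

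In liver the endothelial pair summed to 2.03% with acetaminophen plus G-CSF, 2.49% with acetaminophen and 2.89% in control. The erythroid markers, led by miR-451a, were all detected and summed to 1.11%, 6.37% and 0.195% in that order. The leukocyte markers summed to 0.459%, 0.642% and 0.176%, with miR-142a-5p at 0 in the acetaminophen plus G-CSF column. The 5 stellate and mesenchymal markers summed to 2.34%, 1.81% and 2.29%, and the hepatocyte markers to 14.9%, 42.2% and 27.4%. Members of a list did not all move together. From control to acetaminophen, miR-126a-5p went from 61 to 87 counts and miR-126a-3p from 1366 to 403. The control column was 2.505 times as deep. MiR-143-3p went from 83 to 162 and miR-145a-5p from 895.8 to 140. MiR-122-5p went from 11657.2 to 7901.8, miR-194-5p from 1219.5 to 209.5 and miR-192-5p from 587 to 154. As a share, miR-126a-5p, miR-143-3p and miR-122-5p were higher and the others named lower. The part of these shifts in the family's lower share was not tested.

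Untreated hepatocytes were compared with untreated liver on TMM factors over the 6 columns of both. MiR-130a-3p stood at 0.531 (0.415 to 0.673) of its liver level and mir-130a at 0.818 (0.776 to 0.863), and neither was called, where 50.3% of 161 mature entries were called in either direction. Mir-301a was 3.37-fold higher in hepatocytes (2.20 to 5.26) and mir-301b 3.33-fold higher (2.15 to 5.16), where 21% of 438 hairpins were called higher and 29.5% lower. This comparison depended on scaling. With column totals miR-130a-3p (log2 -1.33), miR-130c (-1.20), mir-130a (-1.19), mir-130b (-1.56) and mir-130c (-1.23) were called lower in hepatocytes, and mir-301a (0.85) and mir-301b (0.83) were no longer called higher. Column totals gave 52 hairpins higher and 237 lower, against 92 and 129. Treated hepatocytes and treated livers had different doses and routes, and their values stand side by side above without a comparison.

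Serum exosomes of untreated mice held a different mixture of family hairpins. Mir-130b had 103.5 counts there, against 55 in control liver, whose column was 7.21 times as deep. It was 13.6-fold higher (9.75 to 19.3) in serum exosomes than in liver, rank 17 from the top of 429 hairpins. Mir-301a was 4.51-fold higher (2.75 to 7.70) and mir-301b 3.86-fold higher (2.27 to 6.72), while mir-130a was 2.77-fold lower (2.48 to 3.12) and mir-130c 2.92-fold lower (2.57 to 3.33). Of the hairpins compared, 12.1% were called higher in serum exosomes and 44.8% lower. The lower values rest on the scaling: with miR-30c-5p and miR-122-5p left out, which raised the median of all hairpins by 0.85 on the log2 scale, mir-130a (log2 -0.62) and mir-130c (log2 -0.69) were no longer called, while mir-130b (log2 4.62), mir-301a (log2 3.03) and mir-301b (log2 2.80) were still called higher. Higher entries then made up 32.5% of the calls, against 21.3%.

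Within a column the mixture does not depend on scaling. Mir-130b had 0.330 (0.263 to 0.415) of the mir-130a count in untreated serum exosomes. It had 0.00178, 0.00810 and 0.00679 of it in hepatocytes with acetaminophen plus G-CSF, acetaminophen and no drug, and 0.0159, 0.0447 and 0.00875 in liver in the same order. The serum interval overlapped none of the 6 others, the nearest of which reached 0.0830 in acetaminophen liver. In the mature table miR-130b-3p had 4 counts to 18 of miR-130a-3p in these exosomes, a ratio of 0.222 (0.0547 to 0.675), and 4 to 395 in control liver, a ratio of 0.0101 (0.00275 to 0.0261).

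**Figure D3:**
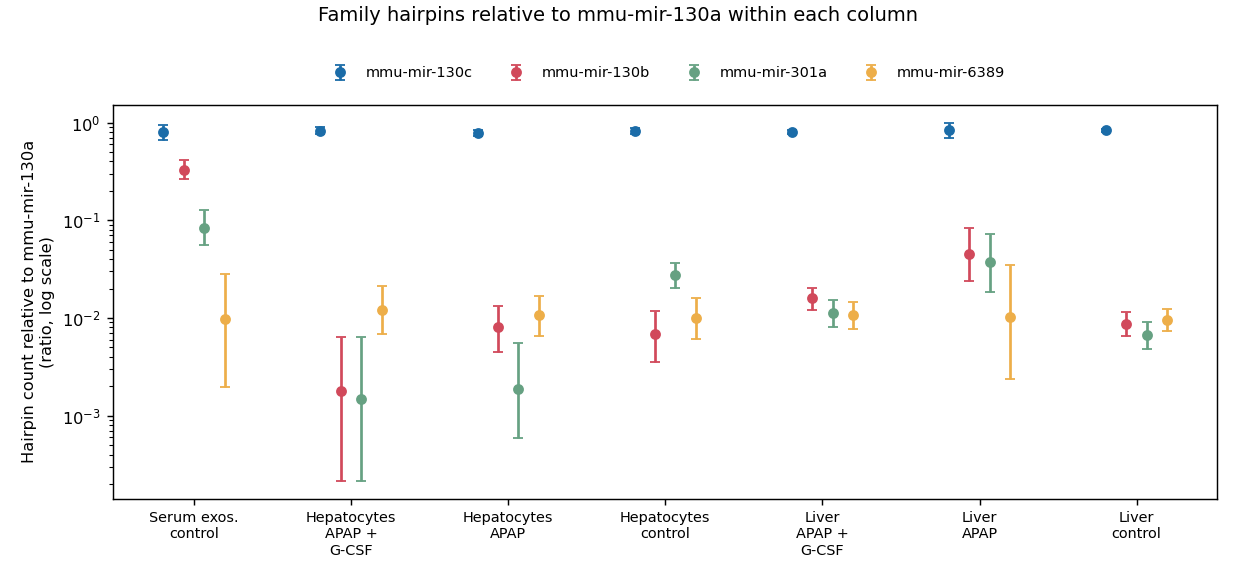
Count of 4 hairpins relative to mir-130a in the same column (ratio, log axis), with exact 95% counting intervals, for untreated serum exosomes and for hepatocytes and liver by treatment (APAP, acetaminophen). Mir-130c kept to 0.775 to 0.835 in all 7 columns and mir-130b reached 0.330 in serum exosomes, against 0.00178 to 0.0447 in hepatocytes and liver.

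Against untreated hepatocytes, a comparison chosen after the values were seen, mir-130b in untreated serum exosomes was 39.9-fold higher (22.0 to 80.1) from 103.5 against 12 counts. Mir-301a was 2.50-fold higher (1.53 to 4.16), and mir-130a stood at 0.823 (0.727 to 0.928). Of 299 hairpins, 27.8% were called higher and 40.8% lower. With miR-30c-5p and miR-122-5p left out, mir-130a stood on the other side of equality, uncalled (log2 0.67), mir-130b (log2 6.27) and mir-301a (log2 2.27) were still called higher, and higher entries made up 53.0% of the calls, against 40.5%. Mature miR-130a-3p was 2.90-fold lower (1.81 to 4.94) in untreated serum exosomes than in untreated liver, where 45.8% of 155 mature entries were called lower, and was no longer called with those 2 entries left out (log2 -0.76). Serum exosomes of untreated mice also held 6.23% erythroid markers, with miR-486a-5p at 228.7 and miR-451a at 162 counts, against 0.195% in control liver and 0.00374% in control hepatocytes. Their part in the mir-130b level was not tested.

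The treated exosome columns were too shallow to follow the family. All 4 mature members were at 0 in both treated serum columns, where a count of 0 allows a share of up to 0.434% with acetaminophen plus G-CSF and 0.688% with acetaminophen, against 0.276% for miR-130a-3p in untreated serum. A fall of miR-130a-3p was therefore not detectable at this depth. In the hairpin table the serum column with acetaminophen plus G-CSF had 0.333 counts of mir-130a, against 314.1 in control, which makes mir-130a at least 2.33-fold lower there with the floor of 3 counts per column, where 13.6% of 242 hairpins were called lower. The bound of log2 -1.22 became -2.27 with miR-30c-5p and miR-122-5p left out, and the calls of this comparison went to 68 higher and 61 lower, against 74 and 33 with column totals. Mir-130c (2 counts against 249.1, log2 -1.47) and mir-130b (1 against 103.5, log2 -1.20) were not called. With those entries left out mir-130c was called (log2 -2.52) and mir-130b was not. The acetaminophen plus G-CSF column spread 4026 counts over 769 hairpins, against 181243 over 460 in control. With the titles in place of the characteristic, the acetaminophen plus G-CSF serum column is acetaminophen alone. The 5 hairpins had no count in the other treated serum column, whose total was 460.

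In exosomes of hepatocytes the family had 1 mature count in all, for miR-301a-3p with acetaminophen, and no hairpin count in any of the 3 columns. A count of 0 allows shares of up to 6.38% with acetaminophen plus G-CSF, 3.30% with acetaminophen and 0.896% in control. The shares of miR-130a-3p in the parent hepatocytes, 1.48%, 1.95% and 0.318% in the same order, all lie under those limits, so no difference between exosomes and cells was detectable for it.

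The miR-148/152 and miR-19 miRNAs hold seeds that overlap the family seed by 6 of its bases, and are shown beside it for comparison. Capitals again mark bases 2 to 8.
mmu-miR-148a-3p: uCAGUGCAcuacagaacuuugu
mmu-miR-19b-3p: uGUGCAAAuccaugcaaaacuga

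MiR-148a-3p, which is abundant in hepatocytes, had 24 counts in hepatocytes with acetaminophen against 56.67 in control, and was 2.23-fold higher (1.32 to 3.63). MiR-148b-3p (2.38-fold) and miR-152-3p (2.39-fold) were also called higher, where 26% of 100 mature entries were. Their counts ran close to those of miR-148a-3p, at 22 and 23 with acetaminophen and at 5.333 for each of the 3 with acetaminophen plus G-CSF, so they are not 3 separate observations. All 3 calls were lost with no low-count filter before TMM (log2 0.59 to 0.69). With acetaminophen plus G-CSF the 3 lay below control, uncalled, at 0.633, 0.737 and 0.708 of it.

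MiR-19b-3p, a member of the miR-17-92 cluster, had 39.5 counts in hepatocytes with acetaminophen against 1262.5 in control and was 6.07-fold lower (4.38 to 8.43), and miR-19a-3p was 5.55-fold lower (3.86 to 7.98), where 27% of the 100 entries were called lower. In liver all 5 were called higher with acetaminophen, from 2.17-fold for miR-19b-3p to 2.61-fold for miR-19a-3p, where 23.1% of 160 mature entries were. The call for miR-19b-3p was lost with column totals (log2 0.96) and with no filter (log2 0.86), and that for miR-148b-3p with no filter (log2 0.95). With acetaminophen alone the miR-130 pair was thus higher than control in hepatocytes and lower in liver, and the miR-19 pair lower in hepatocytes and higher in liver. The hairpins mir-19a and mir-19b-2 had nearly the same counts, at 25691.8 and 26099.4 in control hepatocytes. Counts of the miR-19 pair may therefore not be independent either.

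**Figure D4:**
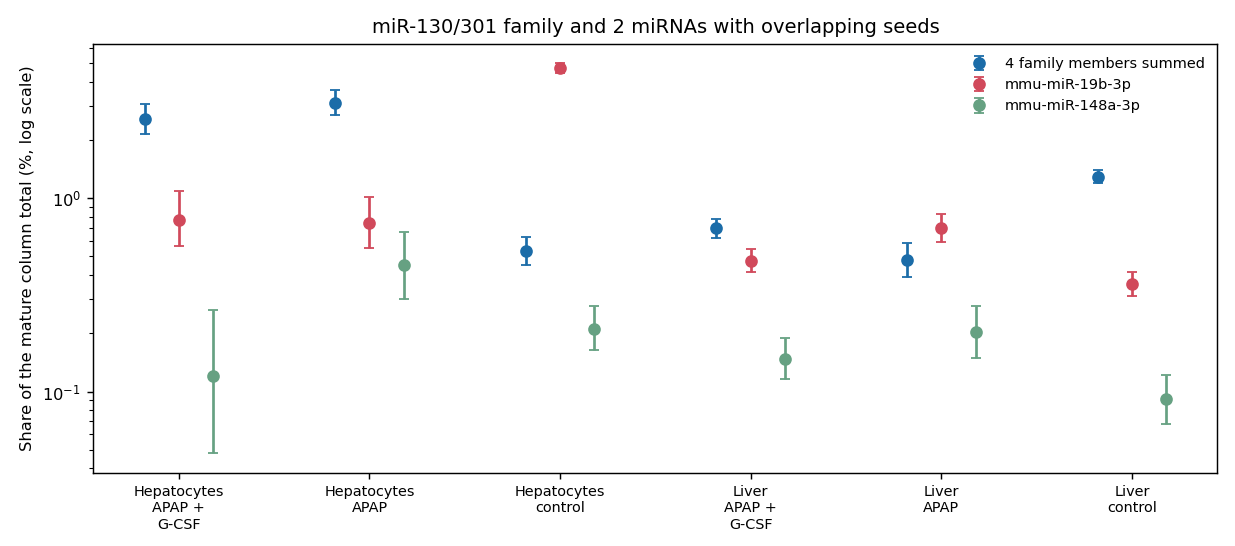
Share of the mature column total (%, log axis) of the 4 family members summed, of miR-19b-3p and of miR-148a-3p, with 95% Wilson intervals, in hepatocytes and liver by treatment (APAP, acetaminophen). The family stood at 3.11% in acetaminophen hepatocytes and 0.534% in control hepatocytes, and miR-19b-3p at 0.741% and 4.72% in the same columns.

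The entries most like miR-130a-3p over the 6 hepatocyte and liver columns were found by Pearson correlation of log2 column shares among 110 mature entries outside the family. MiR-378b (r = 0.986), miR-378a-3p (0.976), miR-378c (0.976), miR-155-5p (0.959) and miR-489-3p (0.938) came first, and the member miR-130c stood at 0.987. The miR-378a hairpin lies in an intron of Ppargc1b, a coactivator gene, and miR-155 is induced in activated immune cells. MiR-155-5p had 26, 46 and 2 counts in hepatocytes with acetaminophen plus G-CSF, acetaminophen and no drug, and 10, 0 and 10 in liver. Among 274 hairpins, mir-378a (0.959), mir-378c (0.954), mir-378b (0.954), mir-6238 (0.948) and mir-6937 (0.926) were the most like mir-130a. MiR-378a-3p and miR-378c had equal counts in all 6 columns and are not separate observations, and all entries of a column share its depth. The hairpins mir-378b and mir-378c had nearly equal counts too, at 3616.0 and 3615.5 in control hepatocytes, with mir-378a close to them at 3744.9. These hairpins are not separate observations either.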

How the data were processed

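The authors deposited estimated counts (expected counts, many of them fractions) for each miRNA without depth scaling, as a mature and a hairpin table, per the file headers. The aligner, build and miRNA annotation were not given in the sources used here. Each of 12 columns combines the 2 instrument libraries of a condition, so the planned fit for separate libraries could not be used and no p-value was computed. Groups follow the treatment characteristic.

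Scaling used TMM from edgeR 4.0.16 on entries with at least 10 counts in 1 column, within hepatocytes, within liver, or over both. Column totals were used wherever exosomes were compared, since fewer than 20 entries reached 10 counts in all columns. DESeq2 1.42.0 size factors were an alternative. Counts were rounded for the exact intervals (scipy 1.17.1), and a count that rounded to 0 was set to a floor of 3. The calling procedure was tested on simulated counts that held counting error only. That does not show how calls behave with variation between animals or cultures. Likeness used log2 of the count plus 0.5 over the column total.

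Sequences and coordinates are from RefSeq (GRCm38.p6) and gene context from GENCODE M21. Named entries were all members, seed-sharing entries, an overlapping-seed list, cell type markers and the 5 entries most like miR-130a. Members and lists were chosen with earlier results of these data known. Serum exosomes against hepatocytes, and mmu-miR-6341 and mmu-miR-6389, were added after the values were seen.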

Additional observations from a re-analysis of the deposited data

Results flagged for a closer look

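The major members, miR-130a and miR-130c, and the miR-301 hairpins were called in opposite directions in hepatocytes and liver with acetaminophen relative to their own control. The difference between materials was not tested, since each rests on 1 column per condition, and the doses differed (20 mM in culture, 500 mg/kg in mice). In the mature table the log2 fold was 2.69 in hepatocytes and -1.47 in liver for miR-130a-3p, 2.54 and -1.05 for miR-130c, and 2.61 and -1.28 for the family summed, in the same order of materials. In the hairpin table it was 1.90 and -1.28 for mir-130a, 1.83 and -1.29 for mir-130c, and 1.83 and -1.21 for the family summed. The miR-301 hairpins had the opposite signs, at -1.97 in hepatocytes and 1.18 in liver for mir-301a and -1.94 and 1.19 for mir-301b. Their counts are nearly the same and run close to those of mir-6341. Mir-130b went against the pattern of opposite directions and was called higher with acetaminophen in both materials, at 2.15 in hepatocytes and 1.07 in liver.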

How the results depend on the processing

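No paired analysis was possible because each column combines both instruments of a condition, and for the same reason leaving out a library and instrument-wise fits were not run. No called family value changed sign under any alternative run. For the 4 mature members summed, 96 results kept their call status. These include the count minimums of 5 and 20, which only decide whether a value is compared and could not change its call. In serum exosomes, acetaminophen plus G-CSF against control (log2 -0.39 as a bound, not called) was called at -1.61 with miR-30c-5p and miR-122-5p left out and at -2.25 with hairpins, and against liver at the same treatment (-0.69 as a bound) at -2.95 with hairpins. In liver, acetaminophen plus G-CSF against control (log2 -1.03) was no longer called with column totals (-0.88), with miR-130a alone (-0.98) or with hairpins (-0.58). Untreated hepatocytes against liver (-0.86, not called) was called with column totals (-1.28). With miR-30c-5p and miR-122-5p left out, untreated serum exosomes lost the call against liver (log2 -0.41, against -1.19) and gained one against hepatocytes (1.06, against 0.09). The hairpin sum for acetaminophen against control liver fell just short with column totals (-0.99). The cause was not tested. For single members, 378 results kept their call status, again with the count minimums among them, 9 gained and 14 lost a call. Scaling moved the median of all mature entries for acetaminophen against control hepatocytes by -0.57 (no filter) to 0.37 (DESeq2), against 2.69 for miR-130a-3p. Exchanging the treated serum columns changed the hairpins called from 23 to 107 with acetaminophen against control and from 107 to 23 with acetaminophen plus G-CSF, where a count minimum of 5 gave 162. Other counts of calls that moved were all in exosome comparisons. Seed-sharing entries, miR-130a alone, the alternatives for the overlapping seeds (44 results kept their call status and 6 lost a call) and leaving out those abundant entries where exosomes are set against cells or tissue were chosen after seeing the data. Depth limits all exosome columns but untreated serum.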
